A study of Danio rerio with 6 samples.

Results

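Oxidative phosphorylation is the pathway by which mitochondria make ATP. Electrons from NADH (through complex I) and succinate (through complex II) pass to complex III, cytochrome c and complex IV. Complexes I, III and IV pump protons across the inner membrane, and complex V (ATP synthase) uses the proton gradient to make ATP. Most subunits of these complexes are encoded in the nucleus and imported, a small core is encoded by the mitochondrial genome, and electrons that leave the chain early are a source of reactive oxygen species (ROS). Because unfit cells in this study were examined for ROS, the comparisons below ask whether the nuclear genes of the pathway were expressed differently in them.

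The genes were chosen by symbol. A row of the expression table was a member if its zebrafish symbol, in any letter case, began with *nduf*, *uqcr*, *cox4*, *cox5*, *cox6*, *cox7*, *cox8* or *atp5*, or was *sdha*, *sdhaf2*, *sdhb*, *sdhc*, *sdhd*, *cyc1*, *cycsb* or *cycs*, and if it was not listed at 0 in all libraries. The rule uses no measured difference. It matched 103 rows, of which 11 were listed at 0 in all 6 libraries, and it left 92 members among 14132 genes not listed at 0. Symbols are written as the table gives them, so that many are in capitals although all genes are zebrafish genes.

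The 92 members covered every part of the chain. Complex I, which oxidizes NADH, had 37 members and a further 7 assembly factors. Complex II (succinate dehydrogenase) had 4 members and 1 assembly factor, complex III had 9, cytochrome c had 1 (*cycsb*), complex IV (cytochrome *c* oxidase) had 13 and complex V had 20. *NDUFA4* carries a complex I name but is a subunit of complex IV and was counted there. The 11 rows listed at 0 included *COX4I2*, *cox4i1l*, *cox7a1*, *cox8b*, *ndufa4l2b*, *ndufa9b* and a second row each named *COX5B* and *SDHD*.

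Cells were collected from zebrafish embryos of the AB strain, labelled as early embryonic cells at 9 h post fertilization (hpf), in 3 groups of 2 libraries each. The study's methods give a slightly earlier stage for the dissociation of the embryos. ‘Mosaic’ cells were GFP+ cells sorted from embryos in which injected heat-shock-driven plasmids gave scattered cells that express GFP and a constitutively active β-catenin (β-catCA). ‘Ubiquitous’ cells were GFP+ cells sorted from a transgenic line whose heat-shock promoter drives GFP and β-catCA throughout the embryo. ‘Uninjected’ cells carried neither and were sorted under similar conditions. Each group came from pooled embryos. No injected group without β-catCA was among the libraries, so that effects of plasmid injection and of β-catCA in ‘Mosaic’ cells cannot be told apart. Scattered expression came only with injected plasmids and uniform expression only with the transgenic line. Between ‘Mosaic’ and ‘Ubiquitous’ cells, these too cannot be told apart. β-catCA was induced by heat shock, and the sources used here do not say whether ‘Uninjected’ embryos received it. GFP, sorting for GFP and, in ‘Ubiquitous’ cells, the transgenic line came only with β-catCA. Against ‘Uninjected’ cells, these cannot be told apart from β-catCA either. Nothing in the labels says that the 2 libraries of a group come from separate embryos, and the p-values below measure only the spread between these libraries, which may be technical.

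The libraries were made by CEL-Seq2, which counts each transcript once at its 3′ end by a molecular identifier, so that levels of different genes can be compared without a correction for length. The deposited values are regularized logarithms (rlog, on the log2 scale), in which library size has been taken out and each value has been shrunk to the mean of its gene, most strongly where counts are low. Running the transformation backwards gave the counts behind them, which return the rlog values of all 14132 genes to within 0.001. Inferred totals were 217242 and 240223 counts in ‘Mosaic’, 345593 and 34540 in ‘Ubiquitous’, against 58352 and 489310 in ‘Uninjected’ libraries. The deepest library therefore held 14.2 times as many counts as the shallowest, and ‘Ubiquitous’ replicate 2 and ‘Uninjected’ replicate 1 stood apart as shallow libraries. A gene was tested if its rlog averaged 2 or more, which kept 3905 genes and 58 of the 92 members, and the other 34 members are described by their counts only.

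The pathway was expressed in all 3 groups, and its subunits differed widely in level. The members held 16962 counts over the 6 libraries, of which the 10 highest members held 55.2%. The highest rlog values belonged to complex V. *atp5mc3b*, which encodes the c subunit of the rotating ring, had 173 and 236 counts in ‘Mosaic’, 406 and 43 in ‘Ubiquitous’, against 53 and 672 in ‘Uninjected’ libraries. *ATP5F1A* (α subunit) had 175 and 259 counts in ‘Mosaic’, 420 and 22 in ‘Ubiquitous’, against 64 and 566 in ‘Uninjected’ libraries. *ATP5F1B*, the catalytic β subunit that pairs with it, had 241 and 264 counts in ‘Mosaic’, 297 and 19 in ‘Ubiquitous’, against 51 and 599 in ‘Uninjected’ libraries. These were the 3 most abundant members, with mean rlog values of 7.39, 7.28 and 7.20, and neighbours in this order differed by less than the median distance between replicates of a member (0.17 to 0.28).

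Complex I was led by *ndufab1b* (mean rlog 7.06), which encodes the mitochondrial acyl carrier protein, followed by *NDUFB9* (6.23), *NDUFS5* and *NDUFAB1*, the second copy of the acyl carrier protein gene. In complex IV, *cox8a* and *NDUFA4* were highest, with mean rlog values of 5.79 and 5.44. *cycsb*, the electron carrier between complexes III and IV, averaged 5.42. Complex III was led by *CYC1* (cytochrome c1, 4.93) and *UQCRH* (the hinge protein, 4.52). Complex II was the least abundant, with *SDHA* (the flavoprotein subunit) at 2.75 and *SDHB* (the iron-sulfur subunit) at 2.3, and its 4 genes together held 16 and 25 counts in ‘Mosaic’, 48 and 4 in ‘Ubiquitous’, against 4 and 54 in ‘Uninjected’ libraries. All 7 complex I assembly factors lay below the filter and held 63 counts in all, and 12 members had fewer than 10 counts over the 6 libraries.

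Depth set what could be seen of the low members. A count was found for 86 and 86 of the 92 members in ‘Mosaic’, 91 and 60 in ‘Ubiquitous’, against 65 and 90 in ‘Uninjected’ libraries, and 52 members had a count in every library. Among tested members, 9 had no count in ‘Ubiquitous’ replicate 2 and 3 had none in ‘Uninjected’ replicate 1. A count of 0 in ‘Ubiquitous’ replicate 2 allows a level of up to 0.00869% of all counts (3 counts), and in ‘Uninjected’ replicate 1 of up to 0.00514%, against 0.000613% in the deepest library. A member not seen in a shallow library is therefore not shown to be absent there. These limits and the intervals below cover counting error only.

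As a share of all counts, the members took 1.15% (95% exact binomial interval 1.1 to 1.19%) and 1.25% (1.2 to 1.29%) in ‘Mosaic’, 1.21% (1.17 to 1.24%) and 0.889% (0.793 to 0.993%) in ‘Ubiquitous’, against 1.04% (0.958 to 1.12%) and 1.31% (1.27 to 1.34%) in ‘Uninjected’ libraries. The groups overlapped, and the replicates of ‘Ubiquitous’ and of ‘Uninjected’ differed from each other by more than the groups did. The lowest shares belonged to both shallow libraries, and the highest to the deepest. With the 61 genes that reached 1000 counts in any library left out of the total, the shares were 1.59 and 1.72% in ‘Mosaic’, 1.61 and 1.42% in ‘Ubiquitous’, against 1.56 and 1.69% in ‘Uninjected’ libraries. No member was among these 61 genes. With 2 libraries against 2, an exact permutation test of a single value cannot reach a two-sided p below 0.33, so that no test is given for shares.

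**Figure D1:**
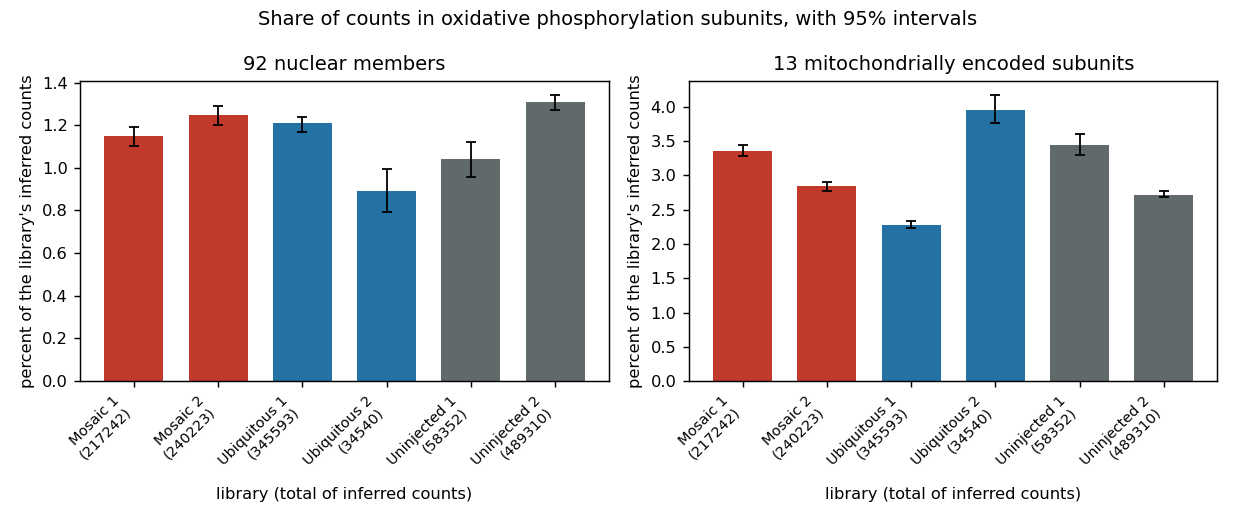
Share of each library's inferred counts (percent, y axis) in the 92 nuclear members (left) and in the 13 subunits encoded by the mitochondrial genome (right), with 95% exact binomial intervals that cover counting error only. Under each library is its total of inferred counts. The nuclear share was lowest, at 0.889% and 1.04%, in the libraries of 34540 and 58352 counts, where the mitochondrially encoded share was highest, at 3.96% and 3.45%.

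The complexes kept similar proportions within the pathway. Complex V took 39.6 and 41.8% of the members' counts in ‘Mosaic’, 42.5 and 45.9% in ‘Ubiquitous’, against 44.9 and 44.3% in ‘Uninjected’ libraries. Complex I took 30.9 and 29.9% in ‘Mosaic’, 32.7 and 30.6% in ‘Ubiquitous’, against 31.5 and 31.2% in ‘Uninjected’ libraries. Complex IV took 18 and 17.1% in ‘Mosaic’, 16.1 and 13.7% in ‘Ubiquitous’, against 13.9 and 14.9% in ‘Uninjected’ libraries. Both ‘Mosaic’ libraries had a larger share of complex IV and a smaller share of complex V than any other library. The nearest was ‘Ubiquitous’ replicate 1, at 16.1% for complex IV and 42.5% for complex V, beside 17.1 and 41.8% in ‘Mosaic’ replicate 2. In ‘Mosaic’, *cycsb* alone held 3.37 and 3.67% of the members' counts, against 2.04 and 1.63% in ‘Ubiquitous’, against 1.65 and 2.05% in ‘Uninjected’ libraries.

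The question of which genes separate scattered from uniform β-catCA expression is addressed by comparing ‘Mosaic’ with ‘Ubiquitous’ cells, which also differ in plasmid injection against a transgenic line. One member, *NDUFAB1*, rose in ‘Mosaic’ cells, and no member fell. The 1 member called of 58 (1.72%) stands beside 52 of all 3905 genes tested (1.33%), with the threshold at an adjusted p of 0.1 in limma and Benjamini-Hochberg adjustment over all genes tested. At an unadjusted p under 0.05, 6 members passed, against 13.0% of all genes tested. The median difference of the 58 members was 0.07 on the rlog scale, against 0.05 for all genes, and 35 members (60.3%) lay above 0, against 56.7% of all genes. Both ‘Mosaic’ libraries exceeded both ‘Ubiquitous’ libraries for 23 members (39.7%, against 28.1% of all genes), and both lay lower for 5 members (8.62%, against 18.5% of all genes).

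*NDUFAB1* (ENSDARG00000058463) encodes a mitochondrial acyl carrier protein, which is both a subunit of complex I and a carrier in mitochondrial fatty acid synthesis. It had 96 and 136 counts in ‘Mosaic’, 98 and 4 in ‘Ubiquitous’, against 16 and 157 in ‘Uninjected’ libraries. Its rlog values were 6.02 and 6.32 in ‘Mosaic’, 5.51 and 4.97 in ‘Ubiquitous’, against 5.56 and 5.58 in ‘Uninjected’ libraries. Both ‘Mosaic’ libraries were above the other 4, of which the highest was 5.58. The difference from ‘Ubiquitous’ was 0.94 on the rlog scale (SE 0.24, adjusted p = 0.0897 in limma), and that from ‘Uninjected’ was 0.60 (SE 0.24, adjusted p = 0.336). Without rlog shrinkage, the pooled level was 1.89 times as high in ‘Mosaic’ as in ‘Ubiquitous’ cells (95% counting interval 1.49 to 2.41). The call rested on particular libraries. The difference was 0.67 without the shallow ‘Ubiquitous’ replicate 2 (adjusted p = 0.391), 1.09 without ‘Mosaic’ replicate 1 (adjusted p = 0.283) and 0.79 without ‘Mosaic’ replicate 2 (adjusted p = 0.441). On the inferred counts with voom it was 1.04 (adjusted p = 0.219), and voom called none of the 58 members in this comparison.

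The 2 copies of the acyl carrier protein gene could be set against each other inside each library, which needs no scaling between libraries. *ndufab1b* (ENSDARG00000014915) had rlog values of 6.97 and 6.88 in ‘Mosaic’, 7.26 and 6.78 in ‘Ubiquitous’, against 7.18 and 7.29 in ‘Uninjected’ libraries. *NDUFAB1* made up 36.2% (30.4 to 42.3%) and 44.4% (38.8 to 50.2%) of the counts of both copies in ‘Mosaic’, 21.7% (18 to 25.8%) and 15.4% (4.36 to 34.9%) in ‘Ubiquitous’, against 23.5% (14.1 to 35.4%) and 22.6% (19.5 to 25.8%) in ‘Uninjected’ libraries. The intervals of both ‘Mosaic’ libraries lay above those of the deep libraries of ‘Ubiquitous’ and ‘Uninjected’ cells. Against the shallow libraries, the interval of ‘Mosaic’ replicate 1 overlapped both and that of ‘Mosaic’ replicate 2 overlapped neither. The sum of both copies took 0.122 and 0.127% of counts in ‘Mosaic’, 0.131 and 0.0753% in ‘Ubiquitous’, against 0.117 and 0.142% in ‘Uninjected’ libraries, with overlapping groups. *NDUFAB1* was singled out by its difference, so that these shares describe it and do not test it. How reads that match both copies were counted is not given in the sources used here.

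**Figure D2:**
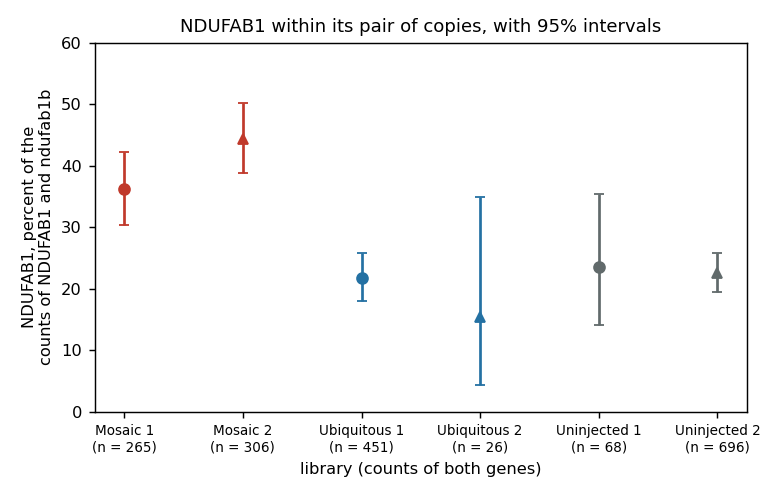
*NDUFAB1* as a percentage of the counts of *NDUFAB1* and *ndufab1b* together (y axis) in each library, with 95% exact binomial intervals for counting error. Numbers under the libraries are the counts of both genes. ‘Mosaic’ libraries lie at 36.2 and 44.4%, and the other 4 between 15.4 and 23.5%.

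Other large differences between ‘Mosaic’ and ‘Ubiquitous’ cells did not pass the threshold, among them that of *COX4I1*, the largest of the 58 tested members. *COX4I1*, a nuclear subunit of complex IV that binds adenine nucleotides, had 59 and 55 counts in ‘Mosaic’, 40 and 1 in ‘Ubiquitous’, against 3 and 119 in ‘Uninjected’ libraries. Its rlog values were 5.16 and 5.0 in ‘Mosaic’, 4.30 and 3.92 in ‘Ubiquitous’, against 3.97 and 4.97 in ‘Uninjected’ libraries, so that ‘Mosaic’ stood clear of ‘Ubiquitous’ while the ‘Uninjected’ replicates lay a whole unit apart. The difference from ‘Ubiquitous’ was 0.97 (SE 0.28, adjusted p = 0.140). It passed the threshold when ‘Uninjected’ replicate 1 or 2 was left out of the fit (adjusted p = 0.0507 and 0.0505), which leaves the value at 0.97.

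*cycsb* had 84 and 110 counts in ‘Mosaic’, 85 and 5 in ‘Ubiquitous’, against 10 and 131 in ‘Uninjected’ libraries. In rlog it lay at 5.81 and 6.02 in ‘Mosaic’, 5.29 and 4.98 in ‘Ubiquitous’, against 5.07 and 5.33 in ‘Uninjected’ libraries. Cytochrome c also starts caspase activation once released from mitochondria, and its transcript was higher in both ‘Mosaic’ libraries than in all 4 others. The differences were 0.78 from ‘Ubiquitous’ (SE 0.23, adjusted p = 0.140) and 0.71 from ‘Uninjected’ cells (SE 0.23, adjusted p = 0.224), and neither passed. With any 1 library left out they ranged from 0.62 to 0.94 and from 0.59 to 0.84.

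Of the other members with separate groups, *NDUFB1*, an accessory subunit of complex I, had rlog values of 4.17 and 4.07 in ‘Mosaic’, 3.64 and 3.26 in ‘Ubiquitous’, against 3.95 and 3.94 in ‘Uninjected’ libraries. Its difference between ‘Mosaic’ and ‘Ubiquitous’ was 0.67 (adjusted p = 0.215), and ‘Ubiquitous’ replicate 2 held none of its counts. *atp5mj*, a small membrane subunit of ATP synthase, had 5.53 and 5.62 in ‘Mosaic’, 5.02 and 4.90 in ‘Ubiquitous’, against 5.29 and 5.14 in ‘Uninjected’ libraries (difference 0.62, adjusted p = 0.229). *ATP5F1B* had 7.42 and 7.43 in ‘Mosaic’, 7.08 and 6.67 in ‘Ubiquitous’, against 7.19 and 7.44 in ‘Uninjected’ libraries (difference 0.54, adjusted p = 0.339). In all 3 genes both ‘Ubiquitous’ libraries lay lowest. ‘Mosaic’ exceeded ‘Uninjected’ by 0.17 for *NDUFB1*, 0.36 for *atp5mj* and 0.11 for *ATP5F1B*, and only for *ATP5F1B* did these groups overlap. For *atp5mj*, ‘Uninjected’ thus lay nearer to ‘Ubiquitous’ (difference of ‘Ubiquitous’ from ‘Uninjected’ -0.26) than to ‘Mosaic’.

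Members that lay lower in ‘Mosaic’ than in ‘Ubiquitous’ cells were fewer. *atp5if1a* encodes an inhibitor that blocks ATP synthase from hydrolysing ATP. It had 38 and 45 counts in ‘Mosaic’, 133 and 8 in ‘Ubiquitous’, against 11 and 157 in ‘Uninjected’ libraries. Its rlog values were 4.94 and 5.02 in ‘Mosaic’, 5.73 and 5.23 in ‘Ubiquitous’, against 5.08 and 5.48 in ‘Uninjected’ libraries. The ‘Mosaic’ libraries were the lowest of the 6, with a difference from ‘Ubiquitous’ of -0.50 (SE 0.24, adjusted p = 0.386), which was -0.25 without ‘Ubiquitous’ replicate 1. Its paralog *atp5if1b* had at most 2 counts in a library. *NDUFS5* differed by -0.48 (adjusted p = 0.395) and *NDUFA6* by -0.46 (adjusted p = 0.462), both accessory subunits of complex I. *atp5mc3b* differed by -0.34 (adjusted p = 0.554) and *SDHA* by -0.33 (adjusted p = 0.526). Without ‘Mosaic’ replicate 1, these differences were -0.25 for *NDUFS5*, -0.21 for *atp5mc3b* and -0.18 for *SDHA*. *NDUFA6* had 20 and 19 counts in ‘Mosaic’, against 75 and 3 in ‘Ubiquitous’ libraries, and its difference was -0.09 without ‘Ubiquitous’ replicate 1 and -0.82 without ‘Ubiquitous’ replicate 2, so that the ‘Ubiquitous’ replicates decided it.

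**Figure D3:**
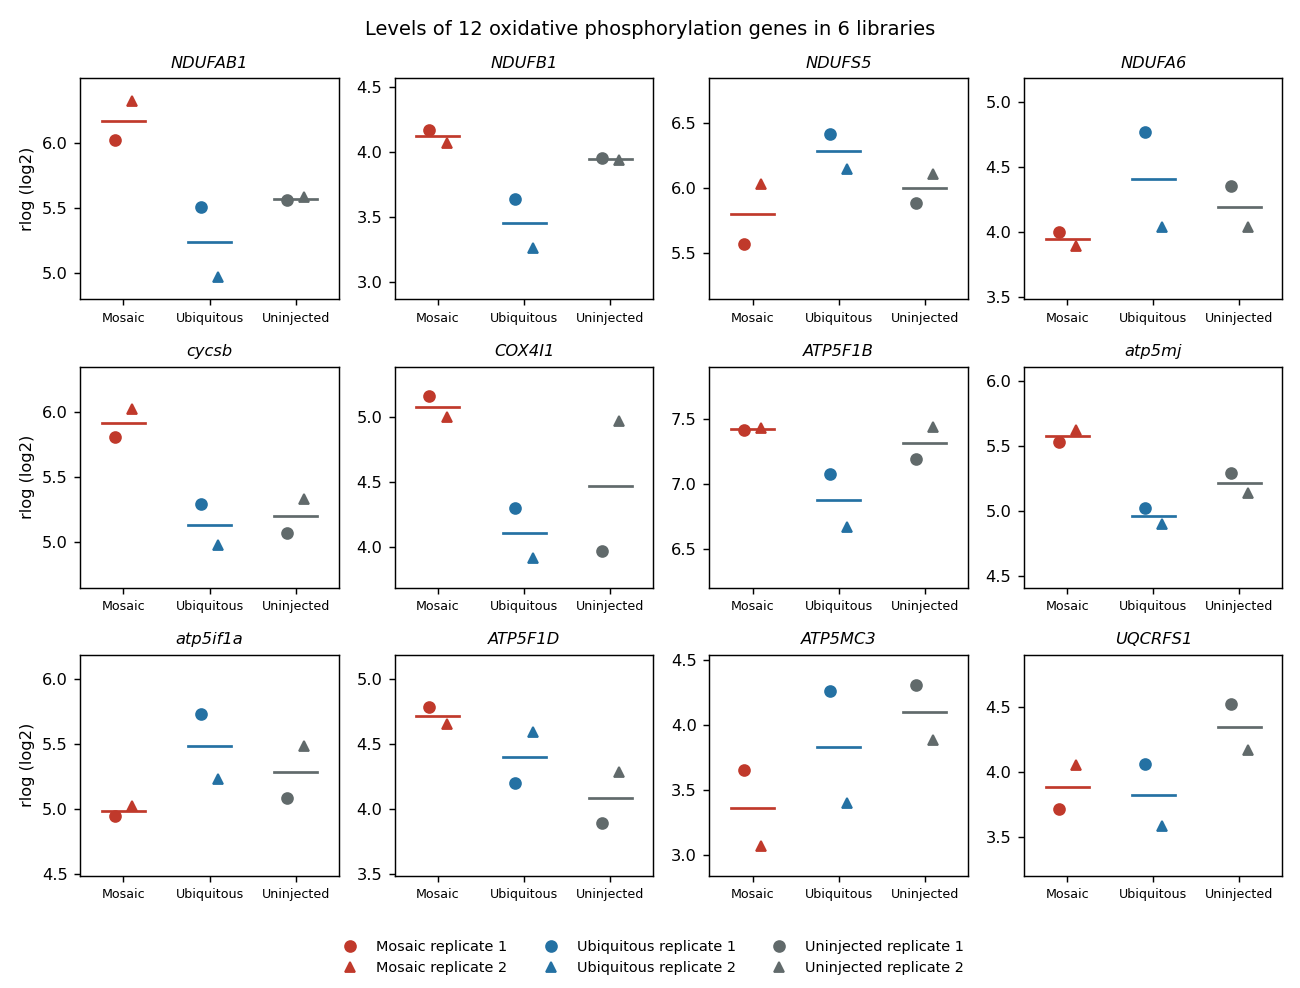
Deposited rlog values (log2, y axis) of 12 members in the 6 libraries, with ‘Mosaic’ left of ‘Ubiquitous’ and ‘Uninjected’. Circles are replicate 1, triangles replicate 2 and lines group means, and every panel spans the same range. *NDUFAB1*, *cycsb*, *COX4I1*, *NDUFB1*, *atp5mj* and *ATP5F1D* lie higher in both ‘Mosaic’ libraries than in the other 4, and *atp5if1a* and *NDUFA6* lie lower. For *COX4I1* the margin is narrow, with 5.16 and 5.0 in ‘Mosaic’, against 3.97 and 4.97 in ‘Uninjected’ libraries.

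By complex, the medians between ‘Mosaic’ and ‘Ubiquitous’ were 0.20 for the 11 tested genes of complex IV, of which 9 lay above 0, and 0.14 for the 7 of complex III, of which 6 lay above 0, beside 56.7% of all genes above 0. Complex I (20 genes) and complex V (17 genes) had medians of 0.00 and 0.01 and were split almost evenly, with 10 and 9 genes above 0. Both tested genes of complex II lay below 0. Within complex IV, *COX4I1*, *COX7C* (0.41), *cox6c* (0.40), *cox8a* (0.40) and *cox6b2* (0.20) lay higher with separate groups. These are 5 of 11, beside 39.7% of all tested members and 28.1% of all genes, and none but *COX4I1* passed an unadjusted p under 0.05. ‘Ubiquitous’ replicate 2 held 0 counts of *COX7C*, 1 of *COX4I1*, 3 of *cox6c*, 4 of *cox6b2* and 8 of *cox8a*. The differences of single members (median size 0.21) were about as large as their standard errors (median 0.23).

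Scattered β-catCA cells were set against uninjected cells by comparing ‘Mosaic’ with ‘Uninjected’ cells, which also differ in plasmid injection, GFP and sorting for GFP. No member was called in limma, against 54 of all genes tested (1.38%). At an unadjusted p under 0.05, 5 members passed, against 11.3% of all genes, and voom also called 0 members. The median difference was 0.07 for members and 0.02 for all genes, with 35 members (60.3%) above 0, against 53.3% of all genes. Both ‘Mosaic’ libraries lay above both ‘Uninjected’ libraries for 17 members (29.3%, against 23.1% of all genes), and below them for 11 (19.0%, against 19.9%). The median turned to -0.01 without ‘Uninjected’ replicate 1.

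The largest positive difference belonged to *cycsb*, given above, followed by *ATP5F1D*, the δ subunit in the central stalk of ATP synthase. *ATP5F1D* had rlog values of 4.78 and 4.65 in ‘Mosaic’, 4.20 and 4.59 in ‘Ubiquitous’, against 3.89 and 4.28 in ‘Uninjected’ libraries. It had 43 and 41 counts in ‘Mosaic’, 38 and 6 in ‘Ubiquitous’, against 3 and 62 in ‘Uninjected’ libraries, and its difference between ‘Mosaic’ and ‘Uninjected’ was 0.63 (SE 0.24, adjusted p = 0.301). *COX4I1* differed by 0.61 (adjusted p = 0.429). That value was 1.11 without ‘Uninjected’ replicate 2 (adjusted p = 0.0752) and 0.11 without ‘Uninjected’ replicate 1 (adjusted p = 0.949), so that the ‘Uninjected’ replicates decide it. *COX7A2*, a small subunit of complex IV, differed by 0.46 (adjusted p = 0.483), with 17 and 31 counts in ‘Mosaic’, against 2 and 34 in ‘Uninjected’ libraries, and by 0.25 without ‘Mosaic’ replicate 2. Its paralog *COX7A2L* lay below the filter, with 10 and 4 counts in ‘Mosaic’, 9 and 0 in ‘Ubiquitous’, against 0 and 16 in ‘Uninjected’ libraries.

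*ATP5MC3*, a second gene for the c subunit of ATP synthase, lay lowest in ‘Mosaic’ relative to ‘Uninjected’ cells. It had 16 and 7 counts in ‘Mosaic’, 53 and 1 in ‘Ubiquitous’, against 10 and 52 in ‘Uninjected’ libraries. Its rlog values were 3.65 and 3.07 in ‘Mosaic’, 4.26 and 3.40 in ‘Ubiquitous’, against 4.31 and 3.88 in ‘Uninjected’ libraries. The ‘Mosaic’ libraries did not overlap the ‘Uninjected’ ones, with a difference of -0.74 (SE 0.29, adjusted p = 0.318) that was -0.45 without ‘Mosaic’ replicate 2, and did overlap the ‘Ubiquitous’ ones. Together with *atp5mc3b* and *atp5mc1* it codes for the c subunit, and it gave 7.73 and 2.67% of the counts of these 3 genes in ‘Mosaic’, 10.7 and 2.17% in ‘Ubiquitous’, against 14.9 and 6.84% in ‘Uninjected’ libraries. The sum of the 3 genes took 0.0953 and 0.109% of counts in ‘Mosaic’, 0.143 and 0.133% in ‘Ubiquitous’, against 0.115 and 0.155% in ‘Uninjected’ libraries. Both ‘Mosaic’ libraries were the lowest, but the next, ‘Uninjected’ replicate 1, held only 67 counts of these 3 genes. *ATP5MC3* was singled out by its difference, so that these shares describe it and do not test it. *atp5mc3b* alone did not pass in any comparison.

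*UQCRFS1*, the Rieske iron-sulfur protein of complex III, had rlog values of 3.71 and 4.05 in ‘Mosaic’, 4.06 and 3.58 in ‘Ubiquitous’, against 4.52 and 4.17 in ‘Uninjected’ libraries. It differed from ‘Uninjected’ by -0.46 in ‘Mosaic’ (adjusted p = 0.503) and by -0.53 in ‘Ubiquitous’ cells (adjusted p = 0.728). With 1 library left out, the ‘Mosaic’ value came as near to 0 as -0.29 (without ‘Uninjected’ replicate 1) and the ‘Ubiquitous’ value as -0.29 (without ‘Ubiquitous’ replicate 2). *ATP5PF* and *ATP5PO*, which belong to the peripheral stalk of ATP synthase, each differed by -0.38 between ‘Mosaic’ and ‘Uninjected’ cells (adjusted p = 0.463 and 0.543), and *ATP5PO* by -0.25 without ‘Mosaic’ replicate 2 or without ‘Uninjected’ replicate 2. *ATP5PF* had between 0 and 20 counts in a library. *ndufab1b* differed by -0.30 (adjusted p = 0.694), in the direction opposite to its copy *NDUFAB1*.

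For β-catCA expressed throughout the embryo, ‘Ubiquitous’ were compared with ‘Uninjected’ cells, which also differ in the transgenic line, GFP and sorting for GFP. No member was called in limma, against 19 of all genes tested (0.487%), 2 members passed an unadjusted p under 0.05, against 6.76% of all genes, and voom called 0 members. The members lay lower on balance, with a median of -0.08, against -0.03 for all genes, and 20 members (34.5%) above 0, against 45% of all genes. Both ‘Ubiquitous’ libraries lay below both ‘Uninjected’ libraries for 19 members (32.8%, against 19.6% of all genes) and above them for 6 (10.3%, against 13.7%). Without the shallow ‘Ubiquitous’ replicate 2 the median was -0.02 for members and 0.01 for all genes, and without ‘Ubiquitous’ replicate 1 it was -0.16 for members and -0.08 for all genes. Members and all genes thus shifted the same way with the shallow library, and the part of its depth in this was not tested.

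*UQCRFS1*, *NDUFB1* (-0.50, adjusted p = 0.70), *ATP5F1B* (-0.44, adjusted p = 0.788), *NDUFA8* (-0.44, adjusted p = 0.803) and *ATP5PF* (-0.39, adjusted p = 0.743) had the largest negative differences with separate groups. Without ‘Ubiquitous’ replicate 2 the differences were -0.31 for *NDUFB1*, -0.23 for *ATP5F1B* and -0.16 for *NDUFA8*, and without ‘Ubiquitous’ replicate 1 that of *NDUFA8* was -0.71. *NDUFA8*, an accessory subunit of complex I, had 23 and 28 counts in ‘Mosaic’, 31 and 0 in ‘Ubiquitous’, against 5 and 65 in ‘Uninjected’ libraries. For *NDUFB1*, *NDUFA8* and *ATP5PF* the count in ‘Ubiquitous’ replicate 2 was 0, and its rlog value there is set by the shrinkage. *ATP5F1B* had enough counts in every library, and its pooled level in ‘Ubiquitous’ was 0.70 times that in ‘Uninjected’ cells (95% counting interval 0.61 to 0.802). The replicates of *ATP5F1B* differed by 0.41 in ‘Ubiquitous’ and by 0.25 in ‘Uninjected’ cells, which is of the order of the difference itself.

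The positive differences were small. *NDUFB7* (0.38, adjusted p = 0.819) rested on 12 and 2 counts in ‘Ubiquitous’, against 0 and 12 in ‘Uninjected’ libraries. *NDUFS5* differed by 0.28 (adjusted p = 0.920), *COX7A2* by 0.25 (adjusted p = 0.938), *SDHA* by 0.22 (adjusted p = 0.938) and *UQCRQ*, a small subunit of complex III, by 0.18 (adjusted p = 0.947). Without ‘Ubiquitous’ replicate 1, *NDUFS5* differed by 0.15, *COX7A2* by 0.12 and *UQCRQ* by 0.31. Without ‘Ubiquitous’ replicate 2, *COX7A2* differed by 0.39 and *UQCRQ* by 0.05, and without ‘Uninjected’ replicate 1 *NDUFS5* differed by 0.17 and *COX7A2* by 0.16. By complex, the median was -0.19 in complex III, -0.11 in complex V and -0.08 in each of complexes I and IV, whereas both tested genes of complex II lay above 0, with a median of 0.18.

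**Figure D4:**
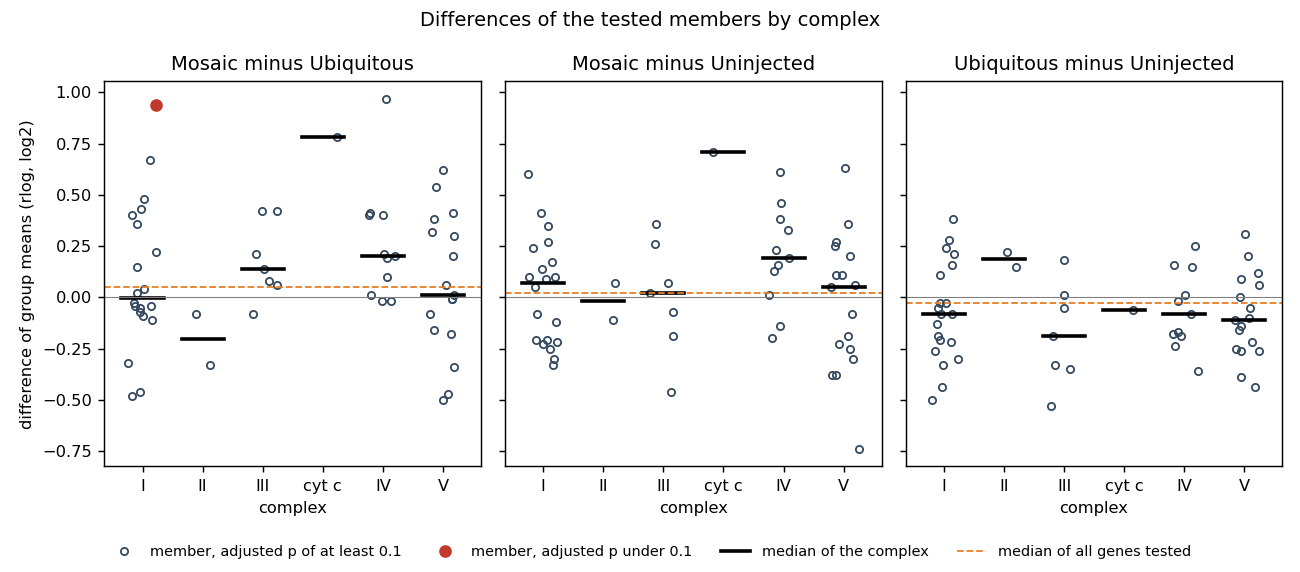
Differences of group means (rlog, log2 scale, y axis) for the 58 tested members by complex (x axis) in the 3 comparisons. Black bars are medians of a complex, the dashed line is the median of all 3905 genes tested, and the filled point is *NDUFAB1*, the one member with an adjusted p under 0.1. The 11 genes of complex IV have medians of 0.20, 0.19 and -0.08 from left to right.

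The replicates limited all 3 comparisons in the same way. The median distance between the replicates of a member was 0.17 in ‘Mosaic’, 0.28 in ‘Ubiquitous’ and 0.22 in ‘Uninjected’ libraries. Over all genes it was 0.20 in ‘Mosaic’, 0.24 in ‘Ubiquitous’ and 0.24 in ‘Uninjected’ libraries. The largest distances were 0.83 for *ndufc2* in ‘Mosaic’, 1.0 for *COX5B* in ‘Ubiquitous’ and 1.0 for *COX4I1* in ‘Uninjected’ libraries. The median size of a member's group difference was 0.21 for ‘Mosaic’ against ‘Ubiquitous’, 0.22 for ‘Mosaic’ against ‘Uninjected’ and 0.19 for ‘Ubiquitous’ against ‘Uninjected’ cells. These sizes lay within the range of the members' replicate distances (0.17 to 0.28). They compare means of 2 libraries, whereas the distances compare single libraries, which vary more than means. Similar sizes therefore do not show that groups differed no more than replicates. The ‘Mosaic’ libraries are shared by 2 of these comparisons, as are those of the other groups, so that the values of a gene in different comparisons are not independent of each other.

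**Figure D5:**
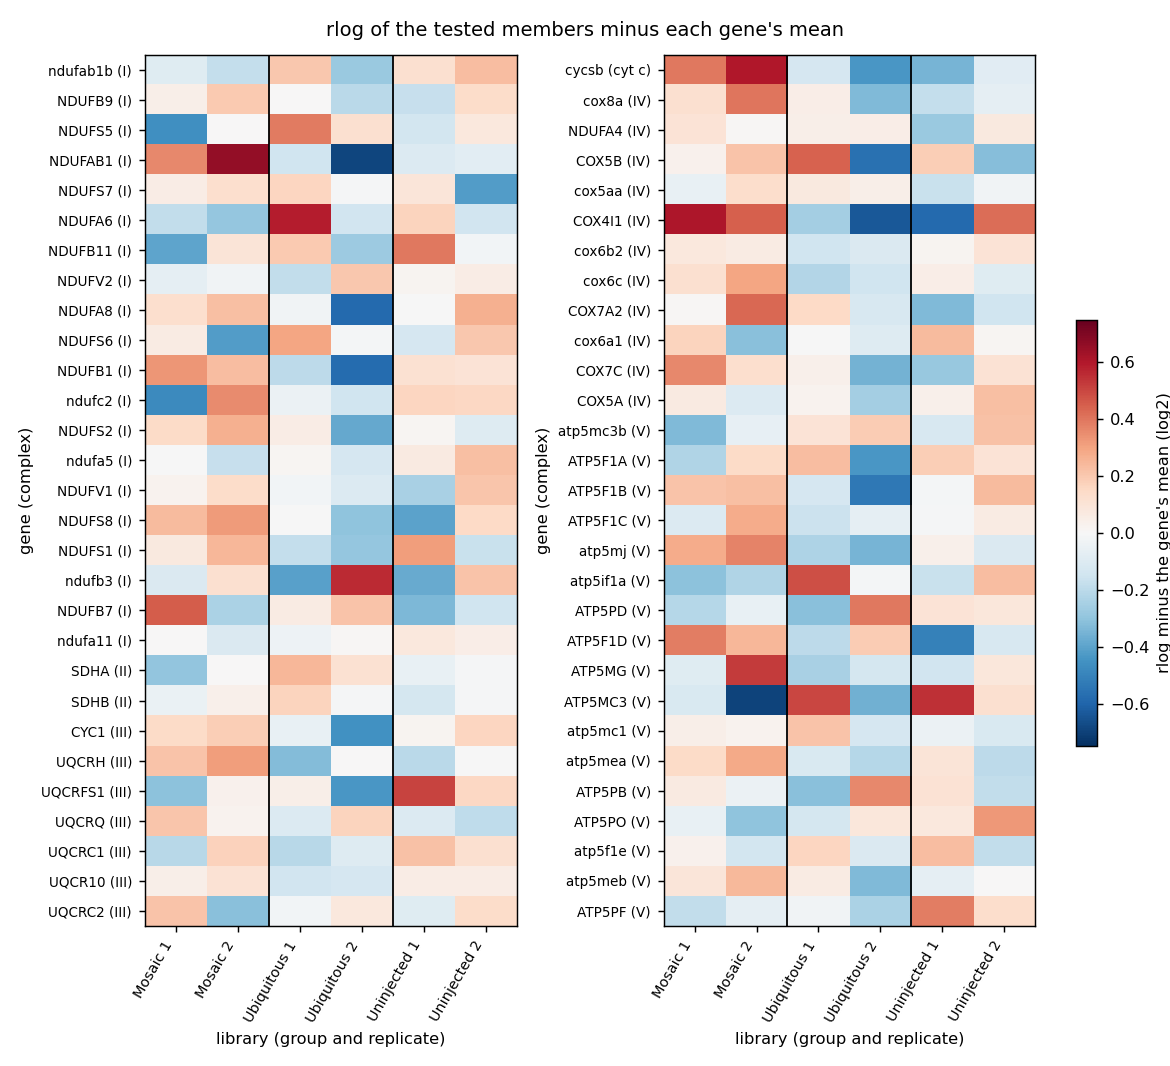
Deposited rlog values of the 58 tested members (rows, complex in parentheses) in the 6 libraries (columns), each minus the gene's mean over the libraries (colour, log2 scale). Columns run from ‘Mosaic’ over ‘Ubiquitous’ to ‘Uninjected’. *NDUFAB1*, *cycsb* and *COX4I1* are higher in both ‘Mosaic’ than in both ‘Ubiquitous’ libraries, and many genes are lowest in ‘Ubiquitous’ replicate 2.

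The 13 subunits encoded by the mitochondrial genome work in the same complexes and were counted separately. They took 3.36 and 2.84% of counts in ‘Mosaic’, 2.28 and 3.96% in ‘Ubiquitous’, against 3.45 and 2.72% in ‘Uninjected’ libraries, which is 1.89 to 4.46 times the share of the 92 nuclear members. The replicates differed more than the groups, and the highest shares belonged to a shallow library in both ‘Ubiquitous’ and ‘Uninjected’ cells. Of these subunits 12 were tested, and limma and voom called none in any comparison. At an unadjusted p under 0.05, 1 passed in ‘Mosaic’ against ‘Ubiquitous’ cells, beside 13.0% of all genes. In ‘Mosaic’ and in ‘Ubiquitous’ against ‘Uninjected’ cells 0 passed, beside 11.3 and 6.76% of all genes. *MT-ND5*, a proton-pumping subunit of complex I, had rlog values of 6.55 and 6.45 in ‘Mosaic’, 5.74 and 5.84 in ‘Ubiquitous’, against 6.34 and 5.88 in ‘Uninjected’ libraries, with a difference of 0.71 between ‘Mosaic’ and ‘Ubiquitous’ (SE 0.23, adjusted p = 0.189). It was chosen after its values were seen.

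The counts of the most abundant genes approached a ceiling. The highest count of any gene was 4083 and 4073 in ‘Mosaic’, 4093 and 2752 in ‘Ubiquitous’, against 3214 and 4096 in ‘Uninjected’ libraries, in each case for the same gene without a symbol (ENSDARG00000080337), although the totals differed 14.2-fold. That number, 4096, is as many different sequences as 6 bases can form, and the length of the molecular identifier is not given in the sources used here. In a pool of 4096 identifiers, transcripts of one gene that share an identifier would be counted once. *MT-ND4* reached 2699 and 2966 counts in ‘Mosaic’, 2667 and 723 in ‘Ubiquitous’, against 901 and 3737 in ‘Uninjected’ libraries. Corrected for such collisions, the ratio of mitochondrially encoded to nuclear members' counts was 3.83 and 3.15 in ‘Mosaic’, 2.41 and 4.72 in ‘Ubiquitous’, against 3.56 and 3.49 in ‘Uninjected’ libraries. As counted, it was 2.93 and 2.28 in ‘Mosaic’, 1.89 and 4.46 in ‘Ubiquitous’, against 3.32 and 2.08 in ‘Uninjected’ libraries. After correction the ‘Uninjected’ replicates lay close together and the ‘Ubiquitous’ replicates did not. The nuclear members were little touched, since the highest count of a member, 672 for *atp5mc3b* in ‘Uninjected’ replicate 2, became 734.0.

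Other genes that serve the pathway were taken from lists and showed few calls in limma. None was called in any comparison among 5 tested assembly factors outside the members, 27 mitochondrial ribosomal proteins and 11 genes of the TCA cycle. The same held for 17 genes of protein import and metabolite carriers, 5 regulators of mitochondrial biogenesis and 5 genes of ROS removal. Voom called none of all these either. At an unadjusted p under 0.05, the TCA cycle had 2 genes in ‘Mosaic’ against ‘Ubiquitous’ and 3 in ‘Mosaic’ against ‘Uninjected’ cells, import and carriers had 3 and 2, ribosomal proteins had 1 and 1, biogenesis regulators and ROS removal had 1 and 0 each, and the assembly factors had 0 and 1. Over all genes tested, 13.0% passed in ‘Mosaic’ against ‘Ubiquitous’ and 11.3% in ‘Mosaic’ against ‘Uninjected’ cells. Between ‘Ubiquitous’ and ‘Uninjected’, import and carriers and ROS removal had 1 each and the other 4 of these lists had 0, beside 6.76% of all genes. Among the members themselves, the 6 tested genes of the catalytic core of complex I had no call by limma or voom and 0 at an unadjusted p under 0.05 in every comparison. Of 39 assembly factors in the table, 36 were not listed at 0 and 31 of these lay below the filter, so that most of that list went untested. The 5 tested genes of ROS removal had median differences of 0.35 for ‘Mosaic’ against ‘Ubiquitous’, 0.08 for ‘Mosaic’ against ‘Uninjected’ and -0.31 for ‘Ubiquitous’ against ‘Uninjected’ cells, and the whole list held only 4 counts in ‘Ubiquitous’ replicate 2.

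The list of import and carrier genes took 0.410 and 0.403% of counts in ‘Mosaic’, 0.310 and 0.327% in ‘Ubiquitous’, against 0.264 and 0.363% in ‘Uninjected’ libraries. It was led by *SLC25A5*, an exchanger of ATP and ADP across the inner membrane, with 313 and 343 counts in ‘Mosaic’, 306 and 33 in ‘Ubiquitous’, against 50 and 451 in ‘Uninjected’ libraries. *SLC25A5* and the phosphate carrier *SLC25A3*, which supply ATP synthase with its substrates, differed from ‘Ubiquitous’ by 0.55 and 0.54 (adjusted p = 0.314 and 0.315) and from ‘Uninjected’ by 0.60 and 0.55 (adjusted p = 0.301 and 0.340), and did not pass. Both were chosen after their values were seen.

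Glycolysis, the route to ATP outside mitochondria, had 1 call among 6 tested genes. It came in ‘Mosaic’ against ‘Uninjected’ cells, where 1.38% of all genes tested were called. *ALDOA* (ENSDARG00000011665), an aldolase, fell in ‘Mosaic’ against ‘Uninjected’ cells by 0.97 (SE 0.23, adjusted p = 0.0443), and voom called it too. Its rlog values were 3.52 and 3.77 in ‘Mosaic’, 4.52 and 4.37 in ‘Ubiquitous’, against 4.64 and 4.58 in ‘Uninjected’ libraries, and the difference from ‘Ubiquitous’ was -0.80 (adjusted p = 0.136). At an unadjusted p under 0.05, 2 of the 6 passed in ‘Mosaic’ against ‘Ubiquitous’, 2 in ‘Mosaic’ against ‘Uninjected’ and 1 in ‘Ubiquitous’ against ‘Uninjected’ cells, beside 13.0, 11.3 and 6.76% of all genes. The list took 0.0621 and 0.0654% of counts in ‘Mosaic’, 0.0961 and 0.0926% in ‘Ubiquitous’, against 0.117 and 0.10% in ‘Uninjected’ libraries. Both ‘Mosaic’ libraries were lowest, but their counting intervals overlapped that of the shallow ‘Ubiquitous’ replicate 2 (0.0634 to 0.131%). Of 29 list genes in the table, 8 were listed at 0 and 15 lay below the filter. *LDHB*, the gene of the list with the most counts, differed by -0.73 in ‘Mosaic’ against ‘Uninjected’ cells (adjusted p = 0.202 in limma). In that comparison 2 of the 6 tested genes lay above 0. *LDHB* was chosen after its values were seen.

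Markers of other cells in the embryo were read beside these values. The 10 listed genes of the enveloping layer, the outer epithelium, took 0.256 and 0.186% of counts in ‘Mosaic’, 0.141 and 0.0984% in ‘Ubiquitous’, against 0.161 and 0.33% in ‘Uninjected’ libraries, with *cldnf* listed at 0. Of the 4 tested, *krt8* lay higher by 1.18 in ‘Mosaic’ than in ‘Ubiquitous’ cells (adjusted p = 0.0416 in limma), and voom called it too. Against ‘Uninjected’ cells, *krt8* differed by 0.29 in ‘Mosaic’ (adjusted p = 0.732 in limma, with overlapping groups). In ‘Ubiquitous’ cells it differed from ‘Uninjected’ by -0.90 (adjusted p = 0.301 in limma). *krt18a.1*, with a difference of -0.79 in ‘Mosaic’ against ‘Uninjected’ cells, was called by voom and not by limma (adjusted p = 0.224), and its difference from ‘Ubiquitous’ was -0.34 (adjusted p = 0.578). The remaining tested markers, *krt4* and *krt5*, lay higher in ‘Mosaic’ than in ‘Ubiquitous’ cells with separate groups, by 0.50 and 0.59 (adjusted p = 0.407 and 0.364 in limma). Both are named here after their values were seen. All 4 tested markers lay lower in both ‘Ubiquitous’ than in both ‘Uninjected’ libraries, beside 19.6% of all genes. Without *krt8*, the markers took 0.0976 and 0.072% of counts in ‘Mosaic’, 0.0828 and 0.0608% in ‘Ubiquitous’, against 0.084 and 0.181% in ‘Uninjected’ libraries. The whole list was thus higher in both ‘Mosaic’ than in both ‘Ubiquitous’ libraries, as *NDUFAB1* and *cycsb* were, but without *krt8* these groups overlapped. Both sums were highest in ‘Uninjected’ replicate 2, where *NDUFAB1* and *cycsb* were not, and their part in the differences was not tested. In bulk samples, fewer cells of a type and less RNA per cell cannot be told apart. The 5 yolk syncytial layer markers had 0 to 10 counts in a library, with *mxtx1* listed at 0. The 5 germ cell markers had 2 and 3 counts in ‘Mosaic’, 19 and 2 in ‘Ubiquitous’, against 12 and 60 in ‘Uninjected’ libraries, and *DND1* fell by 1.02 in ‘Mosaic’ against ‘Uninjected’ cells (adjusted p = 0.0113). Of 7 blastoderm markers read beside the label of early embryonic cells, 6 were tested. The other, *ved*, had only 1 count, in ‘Uninjected’ replicate 2. The 7 markers took 0.232 and 0.351% of counts in ‘Mosaic’, 0.430 and 0.290% in ‘Ubiquitous’, against 0.362 and 0.360% in ‘Uninjected’ libraries. Among them *tbxta*, a mesoderm regulator, fell by 1.5 in ‘Mosaic’ against ‘Ubiquitous’ (adjusted p = 0.0250) and by 1.38 against ‘Uninjected’ cells (adjusted p = 0.0205).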

How the data were processed

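RNA was measured by CEL-Seq2 in 6 libraries, 2 in each of 3 groups taken from the sample titles. The authors aligned reads to GRCz10 with Bowtie2 2.3.1, counted molecular identifiers once per gene with HTSeq 0.6.1, and used DESeq2 for their own calls. The values the authors deposited are rlog values on the log2 scale, for 32266 genes, of which 18134 were 0 in all libraries. All 6 columns were used.

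After a filter on a mean rlog of at least 2, all 6 libraries entered 1 limma model with a variance trend (limma 3.58.1, R 4.3.3), and group means were contrasted. Benjamini-Hochberg adjustment ran over all 3905 genes tested, with a threshold of 0.1. SE is the standard error of a difference in this fit. A group difference on the rlog scale understates the change of genes with few counts.

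Counts were inferred by inverting the rlog transformation with Python 3.11.15, numpy 2.4.6 and scipy 1.17.1, are not the authors' table, and were used for shares (95% exact binomial intervals), pooled ratios and voom (limma). Scripts were tested on simulated data. Replicates of a group differed by 2.7 to 3.75 times the chi-square that counting alone gives, so that each library was counted as its own replicate. Ensembl identifiers were matched to symbols for 26433 genes, 3822 of them tested.

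The members and lists were chosen with earlier results of these data known. Members are named if they passed the threshold, if they were among the 5 largest rises or falls of a comparison with groups that do not overlap, if they were among the 2 highest of a complex, or as paralogs of such genes. List genes are named where they passed. Exceptions are marked as chosen after their values were seen. The complex IV genes named for separate groups between ‘Mosaic’ and ‘Ubiquitous’ cells were chosen after their values were seen. Other lists read were the complex I core, assembly factors, mitochondrially encoded subunits, mitochondrial ribosomal proteins, TCA cycle, glycolysis, import and carriers, biogenesis regulators and ROS removal, with markers of the enveloping layer, yolk syncytial layer, germ cells and blastoderm. The alternatives were other filters, scalings and variance priors, voom, the lot number as a block, a fit without the third group, a stricter threshold and each library left out. The 4 deepest libraries alone, a total without abundant genes, the enveloping layer markers without *krt8* and the correction for shared identifiers were chosen after seeing the data. Sequences were not analysed here.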

Additional observations from a re-analysis of the deposited data

Results flagged for a closer look

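*NDUFAB1* was set apart because its changes in ‘Mosaic’ and in ‘Ubiquitous’ cells, each taken against ‘Uninjected’ cells, differed by 0.94 on the rlog scale (SE 0.24, adjusted p = 0.0897 in limma). The changes were 0.60 in ‘Mosaic’ and -0.33 in ‘Ubiquitous’ cells. Since both are taken against the same ‘Uninjected’ libraries, this is the direct difference between ‘Mosaic’ and ‘Ubiquitous’ cells given in the report. Groups of 2 libraries are too small for a test of single outlying libraries.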

How the results depend on the processing

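The 1 member called between ‘Mosaic’ and ‘Ubiquitous’ cells became 0 at an adjusted p under 0.05, without a filter (14132 genes tested), at a mean rlog of at least 4 (28 members tested), with the lot number as a replicate block (*NDUFAB1* adjusted p = 0.101) and with voom. It became 2 with only the 4 libraries compared (*NDUFAB1* and *COX4I1*). With the 4 deepest libraries, *NDUFA6* and *ATP5MC3* were called instead, both lower in ‘Mosaic’ cells (-0.82 for *NDUFA6*). That fit holds only 1 library of ‘Ubiquitous’ and 1 of ‘Uninjected’ cells. With 1 library left out, the count was 0 to 2. *NDUFAB1* had adjusted p-values from 0.0405 to 0.572 over the alternatives. Between ‘Mosaic’ and ‘Uninjected’, leaving out libraries gave 0 to 1 members (*COX4I1*, without ‘Uninjected’ replicate 2), and between ‘Ubiquitous’ and ‘Uninjected’ 0 were called under all alternatives run. Over all genes, the 3 comparisons had 52, 54 and 19 calls, which became 0, 6 and 7 without a filter, 24, 18 and 5 at a mean rlog of at least 4, 159, 142 and 54 with the 4 deepest libraries, and 2 to 67, 25 to 64 and 14 to 25 with 1 library left out. The lot number is only a number shared by libraries of different groups, whose deviations correlated by -0.12 to -0.04, and the block gave 50, 57 and 23 genes called in the 3 comparisons, against 52, 54 and 19.

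The median difference between ‘Mosaic’ and ‘Ubiquitous’ was 0.19 at a mean rlog of at least 4, 0.17 with voom and 0.07 to 0.20 with 1 library left out. Between ‘Mosaic’ and ‘Uninjected’ it was 0.01 with voom, -0.01 with the 4 deepest libraries and -0.01 to 0.11 with 1 left out. Between ‘Ubiquitous’ and ‘Uninjected’ it was -0.21 with voom and -0.16 to -0.02 with 1 left out. Over all genes tested, the medians with voom were 0.03, -0.07 and -0.09 in these comparisons, in the same order. At a mean rlog of at least 4, the median of all genes between ‘Mosaic’ and ‘Ubiquitous’ was 0.06. The causes were not tested. Pooled shares of counts were 1.20, 1.18 and 1.28% in ‘Mosaic’, ‘Ubiquitous’ and ‘Uninjected’ cells. They were 0.905, 0.859 and 0.912% without the 3 highest members, 1.66, 1.60 and 1.67% without abundant genes in the total, and 1.33, 1.29 and 1.38% without the 10 highest genes. With 1 library left out they were 1.15 to 1.25, 0.889 to 1.21 and 1.04 to 1.31%. Of 467 values of the 30 named differences under alternatives, 454 kept direction and side of the threshold, 8 lost the call, 5 gained one and 0 turned. All 8 lost calls were those of *NDUFAB1*, the only difference called in the main fit, so that most values that kept their side were of differences never called. The named differences have groups that do not overlap, so leaving out 1 library could not turn their direction. A fit without a library leaves 1 library in its group, assumed to vary like the others. Motif and protein comparisons were not run.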
